A study of Mus musculus with 12 samples.

Results

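The cytosolic ribosomal protein genes were described across 4 cell populations sorted from mouse bone marrow. Members were the rows whose symbol was Rpl or Rps followed by a number, with or without a final a, l or x, together with Rplp0, Rplp1, Rplp2 and Rpsa. This took in 78 of the 14560 genes in the table, 32 for the small subunit and 46 for the large subunit. Pseudogenes with a ps suffix and the Rps6k kinases were left out, and 1 member, Rps4l, is a transcribed processed pseudogene in the GENCODE annotation. All 78 members had reads in all 12 libraries, the lowest being 123 reads.

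RNA was sequenced in 3 libraries each from DN-GMPs, from Pro-BMPs, from Pre-BMPs and from mature basophils, all of C57BL/6 mice. The DN-GMPs, Pro-BMPs and Pre-BMPs were c-Kit+, CD34+ and CD16/32+ cells without Sca1 or the lineage markers B220, CD3, Ter119, CD11b and Gr1. Of these, DN-GMPs lacked CDH1 (E-cadherin) and FceRIa (a chain of the IgE receptor), Pro-BMPs were CDH1+ and FceRIa-, and Pre-BMPs were labelled CDH1- and FceRIa+. Basophils were c-Kit- and Sca1- cells carrying CD49b and FceRIa, sorted without B220, CD4, CD8a and Ter119. The design text names 3 mice as independent triplicates, but library numbers are not tied to animals, and p-values rest on the spread among libraries, which may be technical. No population carried a genetic change or treatment in the labels.

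Reads on listed genes numbered 29762981 to 42502405 per library, and a count of 0 allows up to 0.0745 CPM (reads per 1000000 of the authors' scaled library size), counting error only. Of the gate genes, Fcer1a was at 0 in the DN-GMP libraries and averaged 2862 CPM in basophils, and Kit averaged 22.4 CPM in basophils against 260.7 CPM in DN-GMPs. Cdh1 RNA did not follow the CDH1 label of Pre-BMPs, which comes from the sort and so from protein. It was at 33.6 to 56.0 CPM in the CDH1+ Pro-BMPs and at 104.9 to 177.8 CPM in Pre-BMPs, labelled CDH1-. DN-GMPs had at most 0.149 CPM. Basophils, whose gate as described names no CDH1, had 884.5 to 1201 CPM. Markers of other cell types were not absent. The 4 monocyte genes summed to 252.9 to 437.7 CPM in basophils, 24.99 to 34.1 CPM in Pre-BMPs and 1710 to 2021 CPM in DN-GMPs. In Pro-BMPs they summed to 332.4 to 427.6 CPM. Against DN-GMPs, 1 of the 4 was called higher in basophils and 3 lower. The 2 listed lymphoid genes summed to 64.1 to 76.3 CPM in basophils and 30.4 to 40.9 CPM in Pre-BMPs. In DN-GMPs they summed to 48.3 to 56.8 CPM, and 1 was called higher in basophils. The 5 listed erythroid genes summed to 9.11 to 15.3 CPM in basophils and 140.6 to 170.5 CPM in Pre-BMPs. They summed to 0.509 to 0.535 CPM in DN-GMPs. The 2 eosinophil genes summed to 154.1 to 311.6 CPM in basophils, 1804 to 3043 CPM in Pre-BMPs and 1.44 to 12.7 CPM in DN-GMPs. In Pro-BMPs they summed to 1503 to 2492 CPM. Both were called higher in basophils than in DN-GMPs. The 2 listed megakaryocyte genes summed to at most 1.41 CPM in basophils and to 16.98 to 45.9 CPM in DN-GMPs. The 2 listed mast cell genes reached at most 1.61 CPM in basophils, against 82.7 to 288.7 CPM in Pre-BMPs. The 6 neutrophil genes summed to 52.98 to 87.7 CPM in basophils, 59.96 to 253.7 CPM in Pre-BMPs and 61.7 to 79.9 CPM in DN-GMPs. Of these, 3 were called higher and 1 lower in basophils than in DN-GMPs, where 23.2% of all genes were higher and 23.2% lower. The part of all these marker genes in the ribosomal protein values was not tested.

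Ribosomal proteins assemble with ribosomal RNA in the nucleolus into a small subunit, which decodes messenger RNA, and a large subunit, which forms peptide bonds. Their mRNAs are among the most abundant in growing cells, and most begin with a 5′ terminal oligopyrimidine (TOP) tract, a run of C and T letters at the start of transcription through which mTORC1 and LARP1 control their translation and stability. In bone marrow, ribosome production is high in proliferating progenitors, and loss of 1 copy of single ribosomal protein genes causes the red cell failure of Diamond-Blackfan anaemia in humans.

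The pyrimidine run is a feature that the choice by symbol did not use, so promoter sequence is shown for some members. RefSeq promoters on GRCm38.p6, from 250 bases before to 50 bases after the start, were matched for 57 of the 78 members. A run of at least 6 C or T letters, on the given strand and touching the stretch from 10 bases before to 20 bases after the start, was found in 40 of the 57, or 70.2%, against 40.1% of all 27025 genes with a promoter. A run of at least 8 letters was found in 52.6% of members against 19.2% of all genes. CTTTCC, on the given strand, was found in 42.1% of member promoters against 16.0% of all, CCGGAAG, on either strand, in 42.1% against 9.93%, and TATAAA, on either strand, in 10.5% against 15.7%. CTTTCC can lie within a C/T run. The 60 bases from 40 before to 20 after the start are given below, 5′ to 3′, with the longest C/T run near the start in capitals, for Rps27 (chr3:90213629-90213688, minus strand), its paralogue Rps27l (chr9:66946046-66946105, plus strand), Rpl12 (chr2:32961672-32961731, plus strand), Rps2 (chr17:24720023-24720082, plus strand), Rps6 (chr4:86857348-86857407, minus strand) and Rpl38 (chr11:114668540-114668599, plus strand).
Rps27: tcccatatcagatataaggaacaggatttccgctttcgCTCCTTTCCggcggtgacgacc
Rps27l: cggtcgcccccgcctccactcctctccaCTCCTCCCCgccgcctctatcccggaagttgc
Rpl12: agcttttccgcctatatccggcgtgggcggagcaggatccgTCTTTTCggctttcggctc
Rps2: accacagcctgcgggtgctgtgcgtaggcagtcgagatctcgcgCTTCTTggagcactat
Rps6: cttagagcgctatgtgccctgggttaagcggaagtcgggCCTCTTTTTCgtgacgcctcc
Rpl38: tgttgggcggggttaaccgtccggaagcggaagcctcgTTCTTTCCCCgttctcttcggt

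The run spanned the start in Rps27, Rps6 and Rpl38, lay just after it in Rpl12 and Rps2, and lay before it in Rps27l. Rps6, whose protein is the substrate of the S6 kinases, and Rpl38 are shown as members with a run of 10 letters, Rps27, Rpl12 and Rps2 as members at the ends of the range of change, and Rps27l as the paralogue of Rps27. The start of the GENCODE transcript chosen for each gene was within 3 bases for Rps27, Rps27l and Rps2. It was 45 to 153 bases away for Rps6, Rpl38 and Rpl12. Other GENCODE starts were not compared. A match describes these letters and does not show which start the cells used.

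Summed over the family, ribosomal protein mRNA was lowest in basophils. The members' CPM summed to 28586.5, 22166 and 27132 in the DN-GMP libraries, 23050, 24901 and 21188 in Pro-BMPs, 22007, 21868 and 18880 in the Pre-BMP libraries, and 13095, 12430 and 15427 in basophils. The basophil libraries lay below the other 9, the Pro-BMP range overlapped those of DN-GMPs and Pre-BMPs, and every Pre-BMP value lay below every DN-GMP value. The basophil mean, 13651 ± 1574 CPM, was 0.526 times the DN-GMP mean of 25961 ± 3366 CPM (SD, n = 3 each). As a share of reads on listed genes, a measure free of the authors' scaling, the family took 1.40% to 1.74% in basophils against 2.91% to 3.84% in DN-GMPs. CPM and shares of reads are relative values. In bulk samples, less ribosomal protein mRNA in each cell, more of other mRNA and a different mix of cells cannot be told apart.

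**Figure D1:**
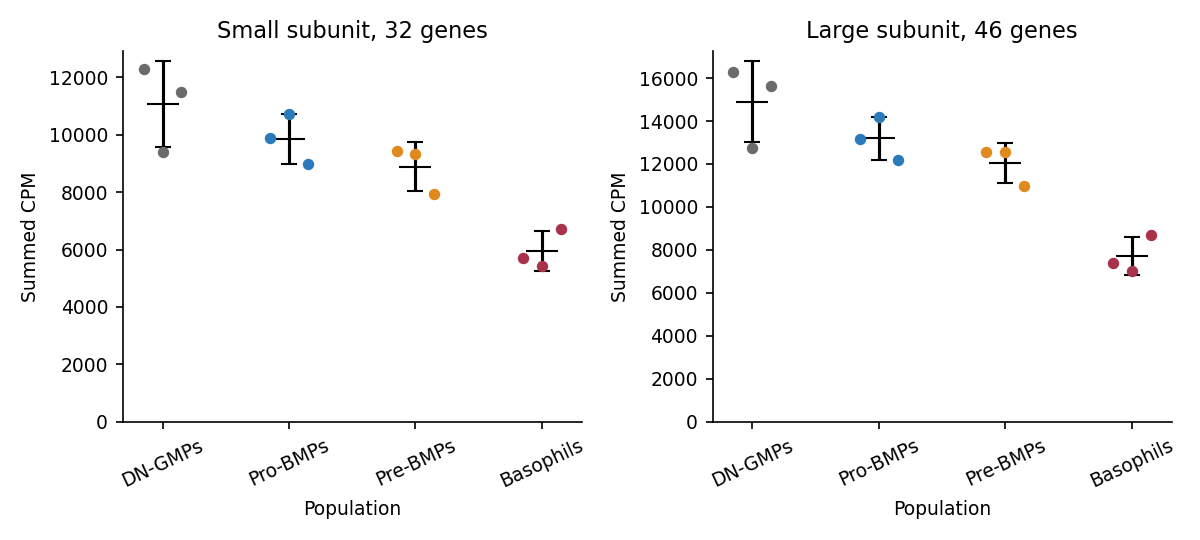
CPM summed over the 32 small subunit genes (left) and the 46 large subunit genes (right) by population; points are libraries, horizontal bars means and error bars SD (n = 3). The basophil libraries, at 5414 to 6723 CPM for the small subunit and 7016 to 8704 CPM for the large one, lie below the other 9 libraries.

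Both subunits moved together. Small subunit genes summed to 5945 ± 689 CPM in basophils against 11064 ± 1494 CPM in DN-GMPs, and large subunit genes to 7706 ± 885 CPM against 14898 ± 1876 CPM. The ratio of the small to the large sum stayed between 0.722 and 0.772 over the 12 libraries. It was 0.770 to 0.772 in basophils and 0.722 to 0.755 in the other populations, so the basophil libraries were the highest 3 without overlap.

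Gene by gene, the members called were those of the comparisons with basophils, by limma across all 14560 genes at a Benjamini-Hochberg adjusted p under 0.05. In basophils against DN-GMPs, 75 of 78 members were lower, 30 small and 45 large subunit genes, where 23.2% of all genes were called lower. None was called higher, where 23.2% of all genes were; 1 member, Rps27, was higher at an unadjusted p under 0.05, by limma and with voom weights. The median log2 change of the members was −1.03, a ratio of 0.488, against −0.01 over all genes. In basophils against Pre-BMPs, 58 of 78 members were lower, 24 small and 34 large subunit genes, against 16.5% of all genes, with a median log2 change of −0.66 against −0.10 over all genes. None was called higher against 13.9% of all genes, nor was any higher at an unadjusted p under 0.05, by limma or voom. Without single libraries the 75 became 73 to 76 and the 58 became 45 to 63. The 58 became 71 with quantile normalization and 75 with scaling to reads on listed genes. The median of all genes, −0.10 on the deposited scale, was −0.05 with quantile normalization and −0.42 with scaling to reads on listed genes. Relative to all genes, the members' median was −0.83 with quantile normalization. With scaling to reads on listed genes it was −0.56, as on the deposited scale. The share of all genes called under these settings is not given here.

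Among the progenitors no member passed the limma threshold. In Pro-BMPs against DN-GMPs, 76 of 78 members had a negative log2 change with a median of −0.18, and 0 were called, where 2% of all genes were called higher and 0.536% lower. Of all 14560 genes, 7025 had a negative log2 change there, with a median of 0.02. The members' median was −0.09 without DN-GMPs library 1, −0.32 without DN-GMPs library 2 and −0.11 without Pro-BMPs library 3 or with quantile normalization. In the same comparison 5 members (Rpl12, Rpl4, Rpl7a, Rplp0 and Rps3) had an unadjusted p under 0.05, all lower, and voom weights gave 0 calls and 9 such members. By limma, 2017 of all 14560 genes had an unadjusted p under 0.05 in either direction, a larger share than among the members. In Pre-BMPs against Pro-BMPs, 70 of 78 were negative with a median of −0.18, and 0 were called, where 4.8% of all genes were called higher and 4.69% lower. Of all 14560 genes, 7093 were negative there, with a median of 0.02. The members' median was −0.08 without Pre-BMPs library 3, −0.11 without Pro-BMPs library 2 and −0.09 with a transcript length trend removed. In that comparison 12 members had an unadjusted p under 0.05, all lower, with Rps27l and Rpl5 nearest the threshold (limma adjusted p = 0.066 for each). By limma, 3344 of all 14560 genes had an unadjusted p under 0.05 in either direction, again a larger share than among the members. With voom weights 14 had an unadjusted p under 0.05 and 1, Rplp0, was called lower (log2 change −0.25, adjusted p = 0.0471). The standard errors of the members' log2 changes ran from 0.066 to 0.329, with a median of 0.151. Adjacent comparisons share a population, and both comparisons with DN-GMPs share those libraries.

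**Figure D2:**
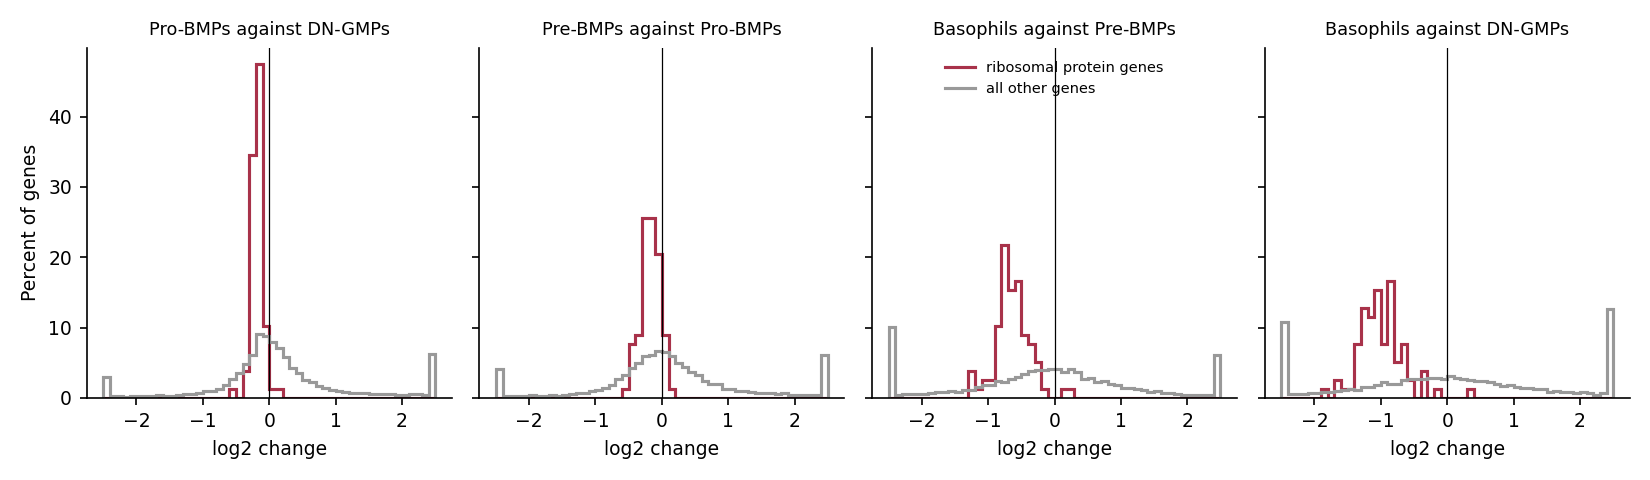
Distribution of log2 changes in the 4 comparisons for the 78 ribosomal protein genes (red) and all other genes (grey), in percent of genes per bin of 0.1; the outermost bins hold all changes of 2.4 or more in size. The red peak lies left of 0 in each panel, with medians of −0.18, −0.18, −0.66 and −1.03.

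Over the 4 populations, 73 of 78 members differed by limma's moderated F-test (46.8% of all genes did). Rpl24, Rpl37, Rpl37a and Rps27 were among the 5 that did not pass. For 65 members all 3 basophil libraries lay below the other 9, which held for 14.7% of all genes, and for 0 members did they lie above, which held for 16.4%.

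Among small subunit genes, Rps2, whose protein lines the mRNA entry channel, had the largest fall against DN-GMPs and against Pre-BMPs. It stood at 174.6, 178.0 and 232.4 CPM in basophils, against 547.1 to 633.2 CPM in DN-GMPs and 432.7 to 495.0 CPM in Pre-BMPs. The basophil values did not come near those of any other population. The log2 change was −1.63 ± 0.11 (SE) against DN-GMPs (limma adjusted p = 5.68e-07) and −1.28 ± 0.11 against Pre-BMPs (adjusted p = 9.79e-06). Rps20 stood at 98.7, 102.3 and 147.1 CPM in basophils against 212.2 to 255.5 CPM in Pre-BMPs, a log2 change of −1.07 ± 0.17 (adjusted p = 0.000652).

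Small subunit genes known from disease or from signalling were also lower in basophils, though not all by as much as the family. Relative to the median log2 value of the 78 members in the same library, Rps19 averaged 0.96 in DN-GMPs and 1.30 in basophils. In the same order, Rps14 averaged 0.93 and 1.30, Rps6 0.26 and 0.34, and Rps26 −0.11 and −0.20. Rps6 averaged 167.6 ± 13.5 CPM in basophils against 321.3 ± 35.5 CPM in DN-GMPs, with a log2 change of −0.94 ± 0.11 (limma adjusted p = 2.97e-05). Rps19, mutated in Diamond-Blackfan anaemia in humans, was level among the progenitors at 522 to 526 CPM on average, and averaged 326.4 ± 39.2 CPM in basophils (log2 change −0.69 ± 0.12 against Pre-BMPs, adjusted p = 0.00147). Rps14, lost in the human 5q- syndrome, had 290.7 to 377.9 CPM in basophils against 411.0 to 506.9 CPM in Pre-BMPs. Its log2 change against Pre-BMPs was −0.52 (adjusted p = 0.0223), and it lost that call without any 1 of 4 libraries (adjusted p 0.0643 to 0.0793 without Pre-BMPs 1, Pre-BMPs 2, basophils 1 or basophils 2). Rps26, another Diamond-Blackfan gene, averaged 116.4 ± 22.8 CPM in basophils against 250.3 ± 39.8 CPM in DN-GMPs (log2 change −1.11, adjusted p = 0.000192).

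Rpsa, at the mRNA exit side of the small subunit and also known as a laminin receptor, had 250.3 to 353.7 CPM in basophils against 627.8 to 777.3 CPM in DN-GMPs (log2 change −1.26 ± 0.13, limma adjusted p = 1.07e-05). Rps27a, made as a fusion with ubiquitin, fell by 1.28 on the log2 scale against DN-GMPs (adjusted p = 1.28e-05) and Rps4x, the X-linked member, by 1.09 (adjusted p = 1.73e-05). Rps3, at the mRNA entry channel, averaged 541.9 ± 12.9 CPM in basophils against 816.5 ± 84.9 CPM in DN-GMPs, a log2 change of −0.59 ± 0.08 (adjusted p = 7.68e-05). All of these basophil values lay below those of every other population.

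Among large subunit genes, Rpl12, which sits at the base of the stalk, had the largest fall of the family against DN-GMPs. It stood at 69.9, 69.8 and 86.2 CPM in basophils, against 301.2, 213.6 and 276.9 CPM in DN-GMPs and 153.3 to 184.2 CPM in Pre-BMPs, without overlap. The log2 change was −1.80 ± 0.14 (SE) against DN-GMPs (limma adjusted p = 1.8e-06) and −1.20 ± 0.14 against Pre-BMPs (adjusted p = 9.32e-05). Rpl36a, X-linked, had 39.9 to 46.2 CPM in basophils against 109.9 to 159.4 CPM in DN-GMPs, a log2 change of −1.68 ± 0.17 (adjusted p = 1.13e-05). Rpl3, close to the peptidyl transferase centre, was the member with the smallest adjusted p. It had 249.3, 260.2 and 286.2 CPM in basophils against 675.1 to 791.9 CPM in DN-GMPs and 616.2 to 642.6 CPM in Pre-BMPs. Its log2 change was −1.47 ± 0.07 against DN-GMPs (adjusted p = 5.84e-08) and −1.24 ± 0.07 against Pre-BMPs (adjusted p = 5.26e-07).

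Rpl5 and Rpl11 bind the 5S ribosomal RNA and can restrain Mdm2. Rpl5 averaged 307.3 CPM in DN-GMPs, 253.3 CPM in Pro-BMPs, 180.5 CPM at the Pre-BMP stage and 105.7 CPM in basophils, and its log2 change in basophils against DN-GMPs was −1.53 ± 0.15 (limma adjusted p = 9.85e-06). Rpl11 averaged 118.4 ± 5.42 CPM in basophils against 210.5 ± 41.5 CPM in DN-GMPs (log2 change −0.81 ± 0.16, adjusted p = 0.00163), and was not called against Pre-BMPs (log2 change −0.36, adjusted p = 0.115), although quantile normalization (−0.58, adjusted p = 0.0194) and scaling to reads on listed genes (−0.68, adjusted p = 0.0076) gave a call. Whether the changes of the pair differ was not tested. Rpl22, needed for T cell development in mice, averaged 63.1 ± 14.3 CPM in basophils against 145.8 ± 31.2 CPM in DN-GMPs (log2 change −1.21, adjusted p = 0.000357). Rpl10, whose loading completes the large subunit, changed least among the called members, with 353.5, 359.8 and 425.4 CPM in basophils against 439.4 to 525.4 CPM in DN-GMPs (log2 change −0.37 ± 0.09, adjusted p = 0.00741). Its highest basophil value passed the lowest Pre-BMP value of 424.9 CPM, and against Pre-BMPs it was not called (log2 change −0.26, adjusted p = 0.0607). It was called there with quantile normalization (−0.66, adjusted p = 0.000316), with scaling to reads on listed genes (−0.58, adjusted p = 0.000937) and without basophils library 3 (−0.34, adjusted p = 0.0204).

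Rplp0, Rplp1 and Rplp2 form the stalk that recruits elongation factors. Rplp0 had 568.0, 509.0 and 668.1 CPM in basophils against 1367, 1173 and 1217 CPM in DN-GMPs (log2 change −1.11 ± 0.09, limma adjusted p = 2.19e-06). Rplp2 averaged 123.3 ± 13.6 CPM in basophils against 315.9 ± 62.7 CPM in DN-GMPs (log2 change −1.34, adjusted p = 6.65e-05). Rplp1, its partner in the heterodimer, averaged 187.8 ± 24.9 CPM in basophils against 341.5 ± 65.5 CPM in DN-GMPs (log2 change −0.85, adjusted p = 0.00123). Against Pre-BMPs, Rplp0 and Rplp2 were called lower while Rplp1 was not (log2 change −0.31 ± 0.16, adjusted p = 0.183). Rplp1 was called too with quantile normalization (−0.60, adjusted p = 0.0134) and with scaling to reads on listed genes (−0.63, adjusted p = 0.0126). The smallest proteins also fell against DN-GMPs: Rpl41 by 0.71 and Rpl39, which lines the exit tunnel, by 0.84.

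**Figure D3:**
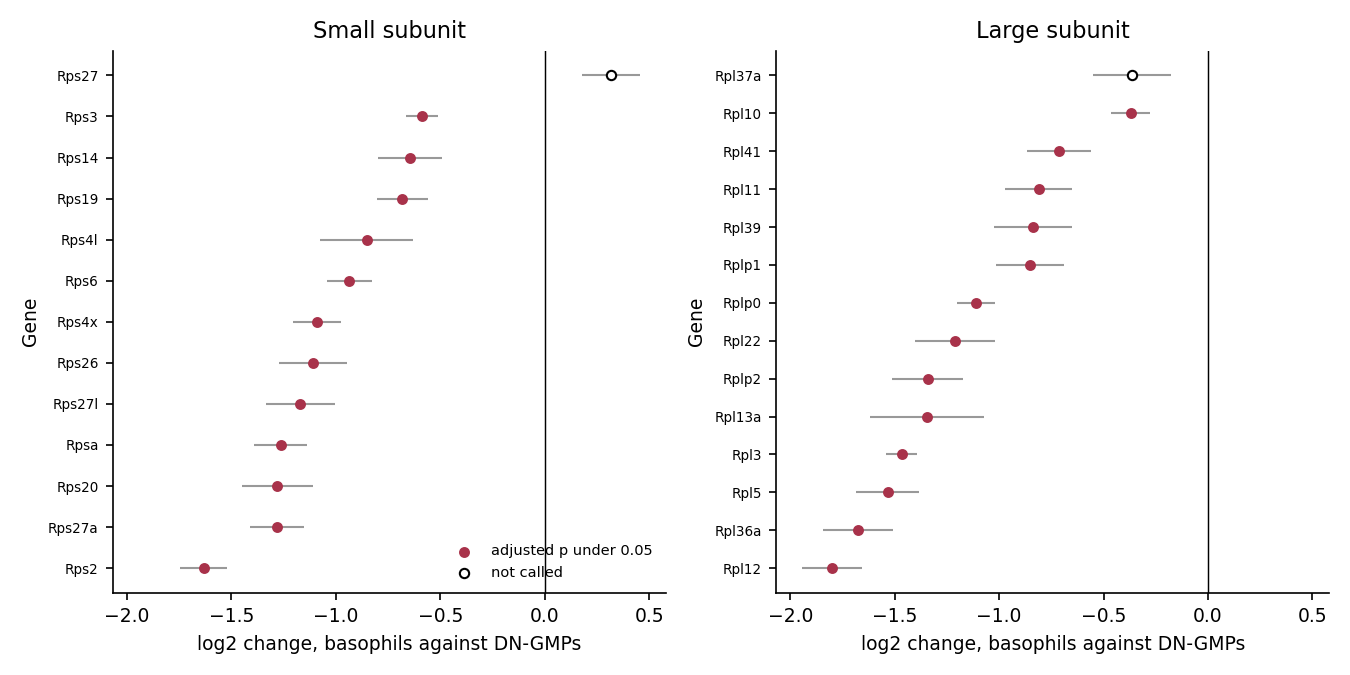
Log2 change in basophils against DN-GMPs for 27 members described individually, small subunit (left) and large subunit (right), ordered by change, with bars of 1 SE; filled points passed an adjusted p under 0.05. Rps27 and Rpl37a are the open points, and Rps27 alone lies right of 0.

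Rps27 and Rpl37a were among the 3 members not called in basophils against DN-GMPs. Rps27, a zinc finger protein of the small subunit, had 244.8, 219.6 and 267.5 CPM in basophils, against 224.7, 158.9 and 207.2 CPM in DN-GMPs and 221.0, 231.6 and 187.9 CPM in Pre-BMPs. These groups overlapped. The log2 change was 0.32 ± 0.14 against DN-GMPs (limma adjusted p = 0.0807) and 0.19 ± 0.14 against Pre-BMPs (adjusted p = 0.328). Without DN-GMPs library 1 the change against DN-GMPs was 0.42 and was called (adjusted p = 0.0386), and with a transcript length trend removed it was 0.71 (adjusted p = 1.48e-05). Against Pre-BMPs its sign turned to −0.15 with quantile normalization and −0.13 with scaling to the reads on listed genes. Rpl37a, with a zinc ribbon, had 177.6 to 245.9 CPM in basophils against 199.2 to 314.6 CPM in DN-GMPs (log2 change −0.36 ± 0.19, adjusted p = 0.128), and was called lower without DN-GMPs library 2 (−0.57, adjusted p = 0.0144), with quantile normalization (−0.58, adjusted p = 0.0195) and with scaling to reads on listed genes (−0.62, adjusted p = 0.0179).

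Set against the other ribosomal protein genes of the same library, Rps27 stood higher in basophils. This measure is the log2 value minus the median log2 value of the 78 members in that library, and no scaling of the libraries alters it. For Rps27 it averaged −0.46 for DN-GMPs, −0.20 for Pro-BMPs, 0.11 for Pre-BMPs and 0.88 for basophils, with SDs of 0.026 to 0.049. The 4 populations did not overlap in it. For Rpl12 it was −0.03, −0.18, −0.20 and −0.82 in the same order, and for Rps2 1.17, 1.19, 1.25 and 0.55. In CPM per kilobase of coding sequence, Rps27 ranked 24 of 77 members for DN-GMPs, 17 for Pro-BMPs, 14 for Pre-BMPs and 3 for basophils. Rpl12 ranked 53, 57, 56 and 68, and Rps2 ranked 35, 36, 35 and 57. These ranks carry no test, and UTR reads are counted while UTR length is not.

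Rps27l, a near twin of Rps27 known as a p53 target, moved differently from it. Rps27l had 88.9, 98.3 and 104.8 CPM in basophils, 135.5, 153.0 and 110.6 CPM in Pre-BMPs, and 238.2, 179.0 and 244.8 CPM in DN-GMPs. The basophil values lay below all others. The log2 change of Rps27l in basophils against DN-GMPs was −1.17 ± 0.16 (limma adjusted p = 0.000141). The log2 ratio of Rps27l to Rps27 within a library averaged 0.17 ± 0.08 for DN-GMPs, −0.06 ± 0.10 for Pro-BMPs, −0.69 ± 0.08 for Pre-BMPs and −1.32 ± 0.15 for basophils (SD, n = 3). Each population lay below the one before it without overlap. An exact permutation test over all divisions of the 12 libraries into 4 groups of 3 gave p = 6.5e-05, the smallest it can give, and 0.000325 after Benjamini-Hochberg adjustment over 5 pairs.

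**Figure D4:**
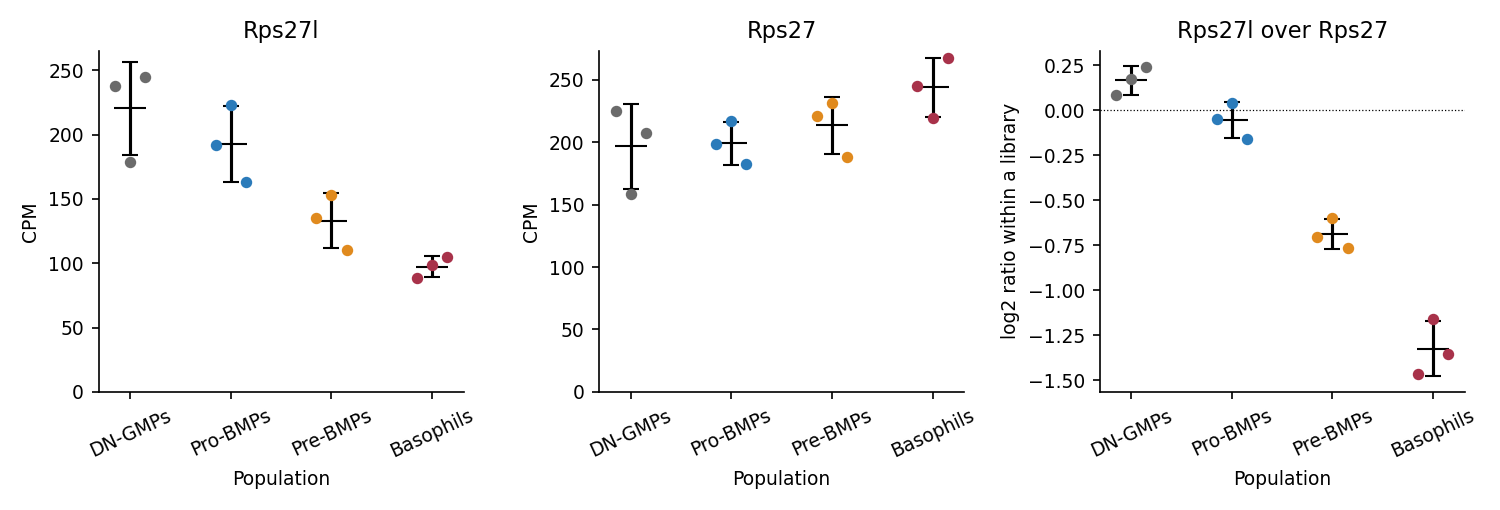
CPM of Rps27l (left) and Rps27 (middle) and the log2 ratio of Rps27l to Rps27 within each library (right), by population; points are libraries, bars means and SD (n = 3). The ratio is 0.084 to 0.240 in DN-GMPs and −1.46 to −1.16 in basophils.

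The other paralogue pairs were Rpl36al with Rpl36a, Rpl7l1 with Rpl7, Rpl22l1 with Rpl22 and Rps4l with Rps4x. Rpl3l, Rpl10l and Rpl39l were not analysed here. The log2 ratio of Rpl36al to Rpl36a was 0.43 ± 0.09 for DN-GMPs, 0.49 ± 0.09 for Pro-BMPs, 0.32 ± 0.05 for Pre-BMPs and 1.21 ± 0.16 for basophils (exact permutation p = 0.00227, adjusted 0.00568). The basophil libraries were above the other 9. Both genes were lower in basophils than in DN-GMPs, Rpl36al by a log2 change of −0.89 ± 0.18 (limma adjusted p = 0.00202) and Rpl36a by −1.68. For the other 3 pairs no difference among populations passed the test (exact permutation, adjusted p = 0.385 for Rpl7l1, 0.191 for Rpl22l1 and 0.611 for Rps4l). The differences of the mean log2 ratio in basophils and DN-GMPs were −0.09, −0.45 and 0.24 for these pairs, with SDs between libraries of 0.138 to 0.377 in those populations for all but DN-GMPs in the Rpl22l1 pair, at 0.076.

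Ribosomal protein genes have many processed copies in the genome, and reads that align to several places were not counted to genes. On GENCODE M21 transcripts (GRCm38), a median of 41.3% of the 50-base windows of a member's transcript occurred in no other gene, and 77 of 78 members shared windows with at least 1 other gene. Rps27 was unique in 1.35% of windows, Rpl5 in 6.2% and Rpl36a in 14.5%, so their counts are uncertain, while Rps27l was unique in 77.6%. Limma called 26 of the 27 members under 25% unique lower in basophils against DN-GMPs, and 26 of the 28 members at 50% or above. The median log2 changes of these 27 and 28 members were −1.04 and −1.01, and 23.2% of all genes were called lower. The share of reads aligned to more than 1 place was 8.51% to 8.66% in basophils against 10.3% to 12.1% in DN-GMPs; its part in these values was not tested. The Rps27 retrocopy Rps27rt was at 3.57 ± 0.752 CPM in basophils against 3.16 ± 1.07 CPM in DN-GMPs and was not called.

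**Figure D5:**
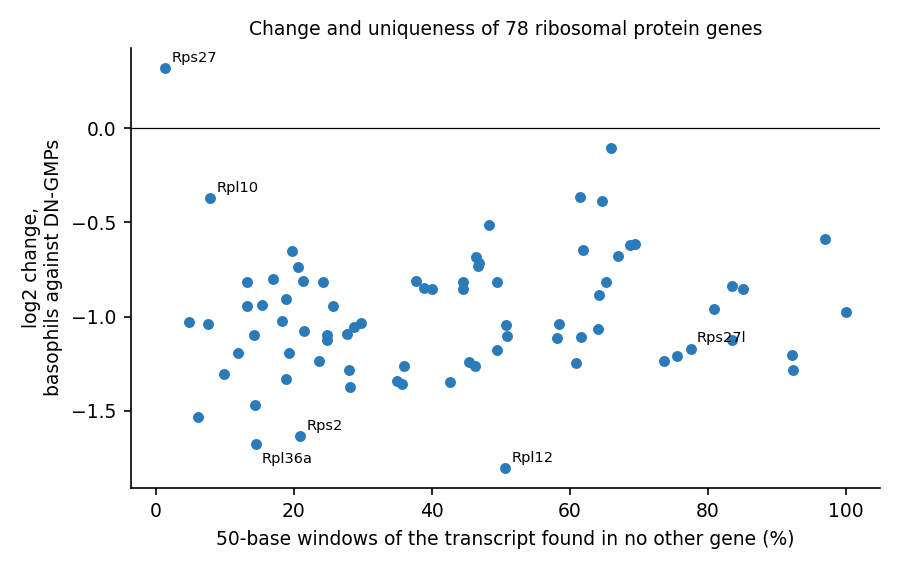
Log2 change in basophils against DN-GMPs (vertical) over the percent of 50-base transcript windows found in no other gene (horizontal); each point is 1 of the 78 genes. Members under 25% and at 50% or above have medians of −1.04 and −1.01, and Rps27 lies at 1.35%.

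The least abundant members were Rpl24, Rpl13a and Rpl23a. Rpl24 averaged 3.56 ± 0.619 CPM in basophils against 7.30 ± 1.68 CPM in DN-GMPs (log2 change −1.03 ± 0.33, limma adjusted p = 0.0239). Rpl13a, part of a translation silencing complex in human monocytes, averaged 10.5 ± 1.94 CPM in basophils against 27.4 ± 8.42 CPM in DN-GMPs (log2 change −1.35 ± 0.27, adjusted p = 0.00187). Other annotated genes cover 47.0% of the exon bases of Rpl24, 35.4% of Rpl13a and 62.3% of Rpl23a, and the kits do not mark strand, so reads there could be counted as ambiguous and these levels are uncertain. Rps4l averaged 10.6 ± 0.71 CPM in basophils against 19.2 ± 2.55 CPM in DN-GMPs (log2 change −0.85 ± 0.22, adjusted p = 0.00836).

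Member transcripts are short, so other short transcripts were set beside them. The set was 600 other genes with transcripts under 1000 bases and a mean level above 10 CPM. Their median log2 change was −0.25 in basophils against DN-GMPs and −0.11 in basophils against Pre-BMPs. The members had −1.03 and −0.66, and all genes, with no limit on level, had −0.01 and −0.10. For the short genes the median was −0.05 in Pro-BMPs against DN-GMPs and −0.13 in Pre-BMPs against Pro-BMPs. The members had −0.18 in each of these, and all genes had 0.02. DN-GMPs library 2, the lowest of its population in the family sum, deviated from its population mean by −0.27 in the members' median and by −0.14 in the median of these short genes, and Pre-BMPs library 3 by −0.18 and −0.16. Removing a transcript length trend from each library, an alternative chosen after seeing the data, left a median of −0.79 in basophils against DN-GMPs.

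Ribosomal proteins named outside the symbol rule included genes that fell and genes that were not called. The 10 rows for relatives held 9 symbols. Of these rows, 7 were lower in basophils than in DN-GMPs (23.2% of all genes) and the other 3 were not called. The median log2 change of the 10 rows was −0.86. Rack1, a scaffold on the small subunit, had 263.6, 238.2 and 273.9 CPM in basophils against 737.9 to 885.2 CPM in DN-GMPs, without overlap (log2 change −1.60 ± 0.10, limma adjusted p = 2.74e-07). It was also lower in Pre-BMPs than in Pro-BMPs (log2 change −0.39, adjusted p = 0.0346). Fau, a ubiquitin-like protein fused to the small subunit protein Rps30, had 174.3, 163.2 and 183.8 CPM in basophils, against 194.9, 142.2 and 191.3 CPM in DN-GMPs and 148.7, 138.0 and 120.5 CPM in Pre-BMPs. Its log2 change was −0.01 ± 0.14 against DN-GMPs (adjusted p = 0.975) and 0.36 ± 0.14 against Pre-BMPs (adjusted p = 0.0695).

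Other genes with TOP mRNAs were lower as well, in 14 of 17 cases in basophils against DN-GMPs (23.2% of all genes), with a median log2 change of −0.99. Npm1, a nucleolar chaperone of ribosome assembly, averaged 152.3 ± 14.3 CPM in basophils against 801.2 ± 111.3 CPM in DN-GMPs (log2 change −2.39 ± 0.11, limma adjusted p = 3.31e-08). Eef1g, a subunit of the elongation factor complex, had a log2 change of −2.21, and Pabpc4, a poly(A) binding protein, of −2.66. Vim, the intermediate filament vimentin, was the 1 gene of the list that was higher (log2 change 0.96, adjusted p = 2.79e-05). In Pre-BMPs against Pro-BMPs, Npm1 was lower (−0.49) and Vim higher (1.18).

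Genes of ribosomal protein handling, snoRNA hosts and RNA polymerase I are set against the 23.2% of all genes that were lower and the 23.2% that were higher in basophils against DN-GMPs. Of 14 listed chaperones and importers, 12 were lower in basophils against DN-GMPs and the other 2 were not called, with a median log2 change of −1.33. Grwd1, the mouse counterpart of the Rpl3 chaperone of yeast, averaged 7.29 ± 4.89 CPM in basophils against 113.2 ± 12.3 CPM in DN-GMPs (log2 change −4.24 ± 0.48, limma adjusted p = 2.61e-05). Ltv1, a small subunit assembly factor, changed by −2.68 and the importer Ipo5 by −2.54. Of 10 snoRNA host genes, 8 were lower and the other 2 not called, with a median of −1.48; Snhg15 changed by −3.10 and Snhg1 by −1.85, and Snhg12 was at 0.0694, 1.27 and 0.853 CPM in basophils against 5.04 to 8.62 CPM in DN-GMPs. Of 20 RNA polymerase I genes, 13 were lower and 1, Znrd1 (log2 change 0.71), was higher, with a median of −0.64; the catalytic subunits Polr1a and Polr1b changed by −2.69 and −2.57.

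Of 15 genes of mTORC1 and LARP1 control, which acts on TOP mRNAs, 5 were lower and 1 higher in basophils against DN-GMPs, where 23.2% of all genes were lower and 23.2% higher. Larp1, which binds the TOP tract, averaged 290.4 ± 29.2 CPM for DN-GMPs, 214.7 ± 16.5 CPM for Pro-BMPs, 134.0 ± 22.0 CPM for Pre-BMPs and 78.2 ± 9.62 CPM for basophils. Its log2 change was −1.90 ± 0.14 in basophils against DN-GMPs (limma adjusted p = 1.04e-06) and −0.69 ± 0.14 in Pre-BMPs against Pro-BMPs (adjusted p = 0.0112). Pdcd4, an inhibitor of eIF4A, changed by −2.05, and Deptor, an mTOR inhibitor, was at 0, 1.76 and 2.91 CPM in basophils against 35.4 to 51.6 CPM in DN-GMPs (adjusted p = 0.00397). The higher gene was Larp1b (log2 change 1.21, adjusted p = 0.0215). For Mtor no change passed the test (log2 change −0.61 ± 0.47, adjusted p = 0.315).

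Of 13 genes of the p53 and Mdm2 response, 6 were higher and 2 lower in basophils against DN-GMPs, with a median log2 change of 0.46, where 23.2% of all genes were higher and 23.2% lower. Bbc3, an apoptosis activator, averaged 28.3 ± 4.14 CPM in basophils against 2.50 ± 1.36 CPM in DN-GMPs (log2 change 3.65, limma adjusted p = 0.000189), and Trp53inp1 and Btg2 changed by 3.01 and 3.00. Trp53 itself was lower, at 132.2 ± 19.7 CPM in basophils against 231.0 ± 19.6 CPM in DN-GMPs (adjusted p = 0.000113), as was the exonuclease gene Aen (log2 change −1.32). Of 14 genes of ribosome quality control and ribophagy, 6 were lower and 2 higher against the same shares of all genes, with a median log2 change of −0.32. Nufip1, a ribophagy receptor, changed by −2.35, its partner Znhit3 by −1.49 and the kinase Map3k20 by −2.97, while Gtpbp2 changed by 2.36 and Rnf14 by 0.65.

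At the single steps, most calls in these lists came in basophils against Pre-BMPs, where 16.5% of all genes were lower and 13.9% higher. There 4 of 10 rows for relatives, 12 of 17 TOP genes and 11 of 14 chaperones and importers were lower. So were 7 of 10 snoRNA hosts, 7 of 20 RNA polymerase I genes and 4 of 15 mTORC1 and LARP1 genes. Of the p53 and Mdm2 genes 5 were higher and 2 lower, and of the quality control genes 5 were lower and 1, Pelo (a ribosome rescue factor, log2 change 1.42, limma adjusted p = 0.00328), was higher. In Pre-BMPs against Pro-BMPs the calls beside Rack1, Npm1, Vim and Larp1 were Eif4a1 (log2 change −0.37), Eif4ebp1 (−0.85), the ribosome recycling factor Abce1 (−0.40), Trp53 (0.40) and Trp53inp1 (2.46). Trp53 was higher in Pre-BMPs than in Pro-BMPs, at 268.8 to 275.8 CPM against 193.9 to 221.7 CPM, and lower in basophils than in Pre-BMPs (log2 change −1.05, adjusted p = 3.42e-05).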

How the data were processed

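The authors deposited 1 table of log2 values for 14560 genes in 12 libraries. In each column these are log2 of reads plus 0.5 per 1000000 of a scaled library size, with reads recovered to whole numbers within 0.001 for 100% of values. Trimmomatic, STAR, deepTools and HTSeq are named without versions, per the submitters' processing notes. The build, the annotation and the scaling method are not given in the sources. Cells were double sorted into TRIzol, per the labels' protocols, RNA integrity was at least 8.4, and kits were SmartSeq v4 and Nextera XT. The 3 rows for reads on no gene were left out.

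The deposited log2 values were fitted with limma 3.58.1 in R 4.3.3, with 1 mean per population over 12 libraries, a mean-variance trend, two-sided tests and Benjamini-Hochberg adjustment over all genes, after the fit was checked on simulated data. CPM (mean ± SD, n = 3) leave out the 0.5 read, and log2 changes with SE. Paralogue ratios were compared by an exact permutation test. Transcript lengths and windows came from GENCODE M21.

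Genes named were the 5 largest called falls and rises per comparison, members set by role, paralogues and up to 3 called genes per related list and comparison; Rpl23a, Rpl24, Rpl37a, Rpl38, Rps27rt, Fau, Mtor and members of small counts were added after their values were seen. Some members are counted in the totals but not reported by name here. The members and lists were chosen with earlier results of these data known. The alternatives were 5 added reads, quantile normalization, scaling to reads on listed genes, median-of-ratios scaling, a filter of 50 scaled reads in 3 libraries, voom weights, fits of only the populations compared, a replicate block, single libraries left out and removal of a transcript length trend.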

Additional observations from a re-analysis of the deposited data

How the results depend on the processing

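Scaling to reads on listed genes moved the members' median log2 change to −0.98 in basophils against Pre-BMPs and −1.29 in basophils against DN-GMPs, where the median of all genes moved to −0.42 and −0.27; relative to all genes the members' medians were −0.56 and −1.03, as on the deposited scale. Quantile normalization gave −0.89 in basophils against Pre-BMPs, and removing the transcript length trend gave −0.79 in basophils against DN-GMPs. The family sum became 11912 CPM in basophils and 23209 CPM in Pre-BMPs with quantile normalization, and 11748 CPM in basophils with scaling to reads on listed genes. With the length trend removed, Rpl4 was called lower in Pro-BMPs against DN-GMPs (1 call). In Pre-BMPs against Pro-BMPs, Rps27 was then higher (1 call) and Rps27l and Rpl27 lower (2 calls), voom weights called 1 member lower, and fitting only these populations called 2 lower, Rplp0 among them. Members were called higher in basophils against Pre-BMPs (2 calls, Rps27 among them) and Rps27 in basophils against DN-GMPs (1 call) with the length trend removed; the cause was not tested. Leaving out single libraries gave 0 to 1 higher calls in basophils against DN-GMPs. Some uncalled changes turned sign: Rps27 was −0.15 (quantile) and −0.13 (listed genes) in basophils against Pre-BMPs, and the Rpl7l1 to Rpl7 ratio was 0.066 higher in basophils than in DN-GMPs with quantile normalization and −0.22 to 0.027 without single libraries. For 27 named members, 871 of 912 alternative values kept the direction and side of the threshold, 16 lost a call, 23 gained one and 2 turned sign.

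Same-numbered libraries correlated at −0.12 to 0.13, 2 of 18 pairs passed 0.1, and 7 of 12 libraries correlated best with their own number. These correlations use deviations from means of 3 libraries, so they cannot decide whether library numbers pair the samples. With a replicate block, 56 members were lower in basophils against Pre-BMPs, 75 in basophils against DN-GMPs, 0 in the progenitor comparisons, and 70 differed among populations. The member with the fewest reads had 123 in a library; counting error was not set against the spread between libraries.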
